A study of Mus musculus with 18 samples.

Results

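The RNA of 6 granule serine proteases was followed in mouse natural killer (NK) cells: the granzyme genes Gzma, Gzmb, Gzmc, Gzmk and Gzmm, and the chymase gene Cma1. They were picked by name and protein family from the 41388 genes listed in the files, and all 6 were among the 14156 genes with enough counts to be tested. RNA had been sequenced from splenic NK cells of C57BL/6 mice aged 8 to 12 weeks, with spleens pooled before sorting. One genotype was wild type (WT). The other carried Ncr1-iCreERT2 KI/WT, Rosa26YFPLSL and Eomesfl/fl and is called KO below. Tamoxifen for 3 days is listed for the libraries of both genotypes. In KO mice the tamoxifen-activated Cre is made from the Ncr1 locus, so deletion of Eomes, a T-box transcription factor, is directed to cells that use Ncr1, which are NK cells and some innate lymphoid cells. Sorting on 2 surface proteins split each genotype by maturity: CD27+CD11b- cells are the least mature (stage II), CD27+CD11b+ cells come next (stage III) and CD27-CD11b+ cells are the most mature (stage IV). This gave 6 groups of 3 libraries each, 18 in all. The labels do not state whether WT mice carried Cre, and the tamoxifen step is listed in the same words for both genotypes. If WT mice lacked either, its effect and that of the deletion cannot be told apart. Labels mention 3 separate experiments without tying a replicate number to one, so p-values here measure the spread between pooled samples.

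Granzymes are stored in cytotoxic granules and released together with perforin, which opens the membrane of a target cell and lets them in. Each has its own cutting preference: granzymes A and K cut after basic residues, granzyme B after aspartate and granzyme M after methionine or leucine. Many chymases cut after aromatic residues, and they are best known from mast cell granules. The preference of the mouse Cma1 protein was not measured here and need not be the same. NK cells carry granzyme transcripts before they are activated, while much of the translation into protein follows activation, so RNA levels in resting cells need not match protein levels.

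The genes lie in 3 places of the genome, given by the positions in the files, which match GRCm38. Gzma (ENSMUSG00000023132) spans chr13:113093825-113100979 and Gzmk (ENSMUSG00000042385) spans chr13:113171608-113225908, both on the minus strand, with 70628 bases between them. Cma1 (ENSMUSG00000022225) at chr14:55941453-55944661, Gzmc (ENSMUSG00000079186) at chr14:56231401-56234656 and Gzmb (ENSMUSG00000015437) at chr14:56258856-56262260 are all on the minus strand, inside 320808 bases of the mast cell protease and granzyme cluster. Gzmm (ENSMUSG00000054206) lies alone at chr10:79689020-79695261 on the plus strand. No counted exon of the 6 genes overlapped an exon of another gene. Of the distinct 50-base stretches of their transcripts, 4.14% of those of Gzmc also occur in Gzmd, Gzme or Gzmg and 5.38% of those of Cma1 in Gm48934. None of those of the other members occur in another gene.

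Since Eomes is a T-box factor, promoters were searched for GTGTGA, the core of the T-box motif, on both strands (TCACAC on the other strand). The 250 bases upstream of the RefSeq start on GRCm38.p6 are printed for Gzmk and Cma1, which had the largest stage II fold changes, for Gzma, the most abundant member, and for Gzmb, which missed the test. Each is on the minus strand and is written along the gene, and capitals mark a match. Their positions are chr13:113100982-113101231 for Gzma, chr13:113180966-113181215 for Gzmk, chr14:55944676-55944925 for Cma1 and chr14:56262335-56262584 for Gzmb.
Gzma: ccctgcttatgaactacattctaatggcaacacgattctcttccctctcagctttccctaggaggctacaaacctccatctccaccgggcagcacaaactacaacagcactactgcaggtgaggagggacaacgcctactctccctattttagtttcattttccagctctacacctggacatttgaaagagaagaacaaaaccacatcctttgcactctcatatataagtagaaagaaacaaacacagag
Gzmk: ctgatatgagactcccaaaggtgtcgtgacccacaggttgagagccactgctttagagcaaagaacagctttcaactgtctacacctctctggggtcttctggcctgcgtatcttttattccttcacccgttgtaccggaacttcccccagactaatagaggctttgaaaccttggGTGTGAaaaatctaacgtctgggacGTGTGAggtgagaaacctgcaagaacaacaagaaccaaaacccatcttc
Cma1: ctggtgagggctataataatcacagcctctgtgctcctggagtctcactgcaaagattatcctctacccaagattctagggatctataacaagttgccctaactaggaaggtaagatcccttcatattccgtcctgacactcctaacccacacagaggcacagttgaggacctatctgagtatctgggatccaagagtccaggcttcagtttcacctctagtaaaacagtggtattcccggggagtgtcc
Gzmb: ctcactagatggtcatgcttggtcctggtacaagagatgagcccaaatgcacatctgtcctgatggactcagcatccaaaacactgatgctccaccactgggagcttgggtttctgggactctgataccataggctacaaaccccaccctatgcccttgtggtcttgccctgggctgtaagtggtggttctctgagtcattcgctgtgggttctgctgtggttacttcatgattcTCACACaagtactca

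Gzmk held 2 matches, at -74 to -69 and -49 to -44 from its start, and the first belonged to the longer string GGTGTGA. Gzmb held 1 match on the other strand, at -15 to -10. Gzma, Cma1 and Gzmc held none in this window. Gzmm has 2 RefSeq starts; the promoter of one held a match at -188 to -183 and the other held none. Among 32851 RefSeq promoters of the same length, 12.3% held GTGTGA on either strand, 0.998% held 2 or more, and 3.33% held GGTGTGA. These matches describe letters in a window and say nothing of binding. The RefSeq start of Gzmk lies inside the longer gene model that was counted, which has 16 exon blocks and also spans Esm1 on the other strand (117 counts over all libraries).

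Library totals ran from 18684350 to 28365837 counts. In KO stage III, only 14824 and 16536 genes were detected in replicates 1 and 3, against 21454 in replicate 2, so values of that group are also given without them where the call or the size changed. Xist was at 0.636 CPM or less in WT replicates 2 and 3 of each stage and at 5.66 CPM or more in the other 12 libraries, so mouse sex was unevenly spread over the genotypes. Eomes, the target, was at 168, 207 and 208 normalized CPM (counts scaled to library size) in WT stage II and at 51.4, 71.1 and 57.0 in KO stage II. In stage III it was at 278, 255 and 282 in WT and at 181, 152 and 173 in KO, then in stage IV at 245, 244 and 280 in WT and at 119, 111 and 86.0 in KO. Every KO library lay below every WT library of its stage, and much Eomes RNA remained. The stage III difference of Eomes was the smallest (-0.69 ± 0.15, adjusted p = 0.0143), and its call ended without KO stage III replicates 1 and 3. The sort markers were in place in WT: Cd27 was at 365 to 448 in stages II and III and 50.4 to 83.4 in stage IV, and Itgam, which encodes CD11b, at 40.8 to 53.7 in stage II and 396 to 821 in stages III and IV. In KO, Cd27 was at 316 to 425 in stages II and III and at 46.5, 30.1 and 33.6 in stage IV, where it was called lower than in WT (-0.92 ± 0.18, adjusted p = 0.0329), a call that ended in 12 of the 18 fits without 1 library. Itgam was at 20.8, 25.3 and 16.9 in KO stage II, below all WT stage II libraries but not called (-1.20 ± 0.32, adjusted p = 0.0890). In KO stage III Itgam was at 105, 293 and 107, below all WT stage III libraries, and was called lower (-1.35 ± 0.32, adjusted p = 0.0225), at -0.56 and not called without KO replicates 1 and 3. In stage IV it was at 480 to 731, within the WT range of 510 to 821 or just below it. The sorted stages were thus not alike in these markers between genotypes, and their part in the protease differences was not tested.

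In stage II, 4 of the 6 proteases were called lower in KO cells, Gzma, Gzmk, Gzmm and Cma1, and none was called higher. Gzmc, at a log2 fold change of 1.29, and Gzmb, at -0.74, were not called, though the genotypes did not overlap. Of all tested genes, 1.46% were called in that comparison and 0.996% were called lower. In stage III, 2 were called, Cma1 lower and Gzmc higher, where 7.9% of all genes were called. In stage IV none was called, where 0.509% of all genes were called. The members' median log2 fold change was -1.89, -0.25 and -0.20 in the 3 stages, against -0.01, 0.02 and 0.02 over all tested genes. A call means an adjusted p under 0.05 in edgeR's quasi-likelihood test. Less RNA per cell and fewer cells of a kind within a sort cannot be told apart in pooled RNA.

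**Figure D1:**
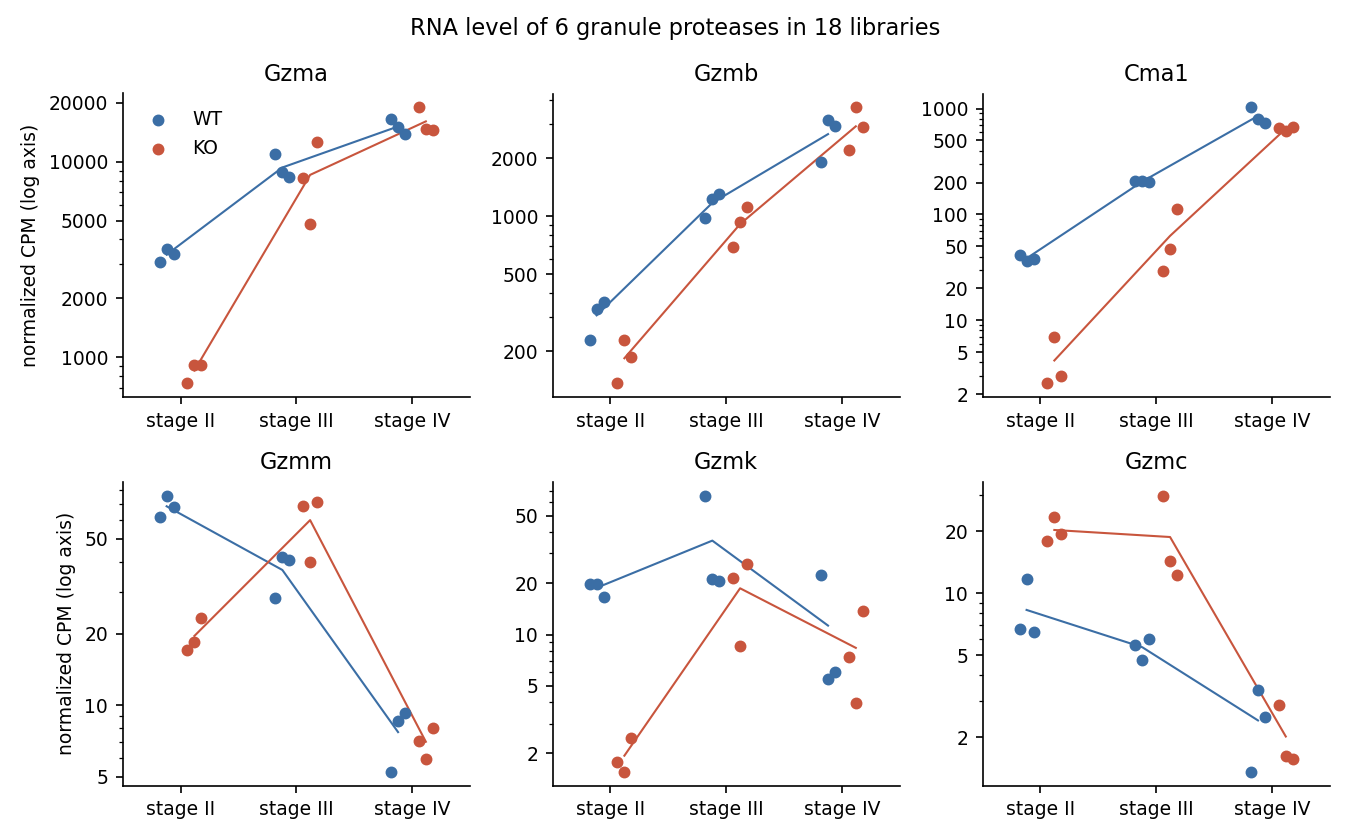
Normalized CPM (log axis) of the 6 proteases in each library, by sorted stage, with WT in blue and KO in red; lines join the means of 3 libraries. The KO points of Gzma, Cma1, Gzmm and Gzmk lie below all WT points in stage II and, except for Cma1, mix with them in stage IV; Gzmc is the member whose KO points lie above WT in stages II and III.

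Gzma, which encodes granzyme A, was by far the most abundant of the 6. In stage II it was at 3062, 3588 and 3388 normalized CPM in WT replicates 1, 2 and 3, and at 735, 916 and 915 in KO. The 2 genotypes did not overlap, and the KO libraries lay close together. Its log2 fold change of -1.97 ± 0.25 (SE, with n = 3 in each genotype) made it 3.92-fold lower (adjusted p = 2.27e-04), and the call held under every alternative tried. In stage III Gzma was at 10886, 8804 and 8317 in WT and at 8294, 4808 and 12572 in KO. KO libraries lay on both sides of WT there, with the lowest and the highest of the 6 values both in KO. The fold change was -0.13 ± 0.24 (adjusted p = 0.761). Without KO stage III replicates 1 and 3 it was -0.97 (adjusted p = 0.0228), resting on replicate 2 alone. In stage IV Gzma was at 16439, 15036 and 13927 in WT and at 18965, 14652 and 14588 in KO, fully mixed, with a fold change of 0.09 ± 0.24.

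Gzmk, the neighbour of Gzma, encodes the other tryptase-like granzyme and was a low transcript. In stage II it was at 19.8, 19.9 and 16.7 normalized CPM in WT and at 1.78, 1.56 and 2.48 in KO, the latter from 39 to 57 counts per library. All KO libraries lay far below WT. The difference was -3.28 ± 0.64 on the log2 scale, or 9.72-fold lower (adjusted p = 0.0114), and its call ended when any 1 of the 3 KO stage II libraries was left out, over a range of -3.47 to -3.13 for all single omissions. In stage III Gzmk was at 65.3, 21.1 and 20.5 in WT and at 21.6, 8.56 and 25.9 in KO, then in stage IV at 22.3, 5.50 and 6.03 in WT and at 7.34, 3.96 and 13.8 in KO. WT replicate 1 stood far above the other WT libraries in both of these stages, and the genotypes overlapped. The fold changes were -0.93 ± 0.57 (adjusted p = 0.285) and -0.43 ± 0.58 (adjusted p = 1). The stage III value was -2.06 without KO replicates 1 and 3 (adjusted p = 0.551), from the 1 KO library left, and -0.28 without the libraries numbered 1. Without the libraries numbered 1 the stage IV value was 0.63, so its direction rests on them.

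Gzmb encodes granzyme B, the main activator of caspases among granzymes. In stage II it was at 229.9, 330.4 and 359.9 normalized CPM in WT and at 136, 228 and 187 in KO. The highest KO library lay just below the lowest WT library. The log2 fold change of -0.74 ± 0.25 did not pass the test (adjusted p = 0.271). It passed with no count filter (adjusted p = 0.0130) and with limma's voom with quality weights (adjusted p = 0.0215). It also passed with the replicate number as a block (adjusted p = 0.00304). In stage III Gzmb was at 982, 1233 and 1304 in WT and at 691, 928 and 1113 in KO, then in stage IV at 1908, 3156 and 2922 in WT and at 2196, 3665 and 2904 in KO. The ranges overlapped in both stages. The values were -0.37 ± 0.25 (adjusted p = 0.347) and 0.14 ± 0.25 (adjusted p = 1). With a term for Xist the stage II value was -0.36 (adjusted p = 0.713). Without KO stage III replicates 1 and 3 the stage III value was -0.35.

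Gzmm, which encodes granzyme M, showed the one pattern in which genotype moved the stage of the highest level. In stage II it was at 61.5, 75.9 and 68.3 normalized CPM in WT and at 17.0, 18.4 and 23.3 in KO, with no overlap. It was 3.51-fold lower in KO (log2 -1.81 ± 0.24, adjusted p = 3.84e-04), a call that held under every alternative. In stage III it was at 28.4, 42.0 and 40.8 in WT and at 68.5, 40.0 and 71.4 in KO. KO replicates 1 and 3, the libraries with few genes, lay above all WT libraries, while KO replicate 2 lay among them. The fold change was 0.69 ± 0.23 (adjusted p = 0.0702), at 0.91 without KO replicate 2 (adjusted p = 0.00498) and at 0.10 without KO replicates 1 and 3. It passed with DESeq2 (adjusted p = 0.0325), with no count filter (adjusted p = 0.0144) and with a term for Xist (1.04, adjusted p = 0.0257). It also passed with the replicate number as a block. In stage IV Gzmm was at its lowest in both genotypes, at 5.25, 8.63 and 9.27 in WT and at 7.08, 5.98 and 8.03 in KO (log2 -0.13 ± 0.25).

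Gzmc, a granzyme gene of the Gzmb cluster, was the member that went the other way. In stage II it was at 6.70, 11.7 and 6.48 normalized CPM in WT and at 17.9, 23.4 and 19.5 in KO. Each KO library lay above each WT library, yet the log2 fold change of 1.29 ± 0.36 missed the threshold (adjusted p = 0.104). It passed in 5 of 9 other settings, among them DESeq2 (adjusted p = 0.0200) and the fit on the stage II libraries alone (adjusted p = 0.0302). In stage III Gzmc was at 5.62, 4.74 and 6.02 in WT and at 29.7, 14.3 and 12.2 in KO, again without overlap and with KO replicate 1 the highest. It rose 3.42-fold (log2 1.78 ± 0.36, adjusted p = 0.0112). The call ended without any 1 WT stage III library, without KO stage III replicate 1, without KO stage III replicates 1 and 3 (1.38, adjusted p = 0.144) and in the fit on stage III alone (adjusted p = 0.199). In stage IV its counts were 33 to 81 per library, at 1.35, 3.38 and 2.49 in WT and at 2.85, 1.62 and 1.57 in KO, which overlapped (log2 -0.27 ± 0.39).

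Cma1, the chymase gene, had the widest range of the 6 and differed between genotypes in stages II and III. In stage II it was at 40.9, 36.3 and 38.0 normalized CPM in WT and at 2.53, 6.96 and 3.00 in KO. WT libraries lay within a narrow band far above KO. It was 9.24-fold lower in KO (log2 -3.21 ± 0.41, adjusted p = 2.81e-04), under every alternative. In stage III Cma1 was at 205, 209 and 200.2 in WT and at 29.3, 47.4 and 111 in KO. The KO libraries were spread widely, all below WT. The fold change was -1.71 ± 0.37, or 3.26-fold lower (adjusted p = 0.0159), and -2.12 (adjusted p = 0.00932) without KO replicates 1 and 3. It lost its call without any 1 WT stage III library (adjusted p up to 0.0698), without KO stage III replicate 1, in the fit on stage III alone and without the libraries numbered 1 (-1.37, adjusted p = 0.136). In stage IV Cma1 was at 1028, 791 and 737 in WT and at 655, 616 and 665 in KO. All KO libraries were still the lower ones, but the difference of -0.40 ± 0.36 did not pass (adjusted p = 1).

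**Figure D2:**
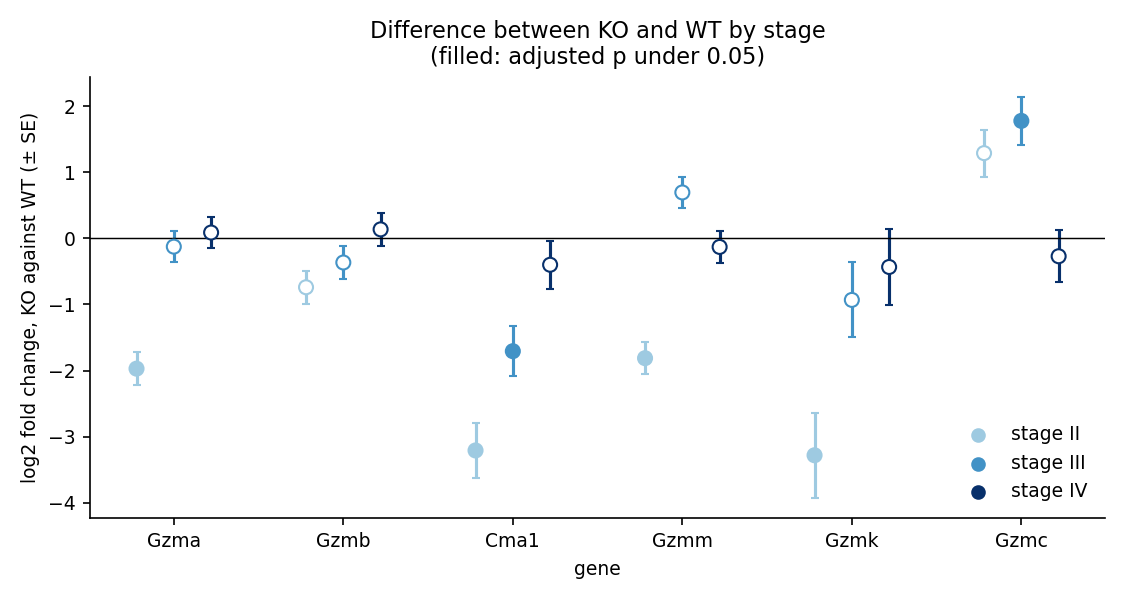
Log2 fold change of KO against WT with its SE for each protease in stages II (light), III (middle) and IV (dark); filled points passed the test. The stage II points of Gzma, Cma1, Gzmm and Gzmk lie between -3.28 and -1.81, and all stage IV points lie between -0.43 and 0.14.

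In stage IV no member reached an unadjusted p under 0.05 either, the lowest being 0.286 for Cma1, and DESeq2 called none. This does not show that the levels were equal. Whether the KO difference itself changed with stage was tested as an interaction. From stage II to IV the KO difference of Gzma moved by 2.06 ± 0.34 on the log2 scale (adjusted p = 0.0193) and that of Cma1 by 2.81 ± 0.54 (adjusted p = 0.0439), both toward 0. Those were 2 of the 6 members, where 0.212% of all genes were called. Gzmm, at 1.68 ± 0.34, missed the threshold (adjusted p = 0.0577) but passed in 7 of 9 other settings, among them DESeq2 (adjusted p = 9.07e-04) and voom (adjusted p = 0.00755). Gzmk, at 2.85 ± 0.85 (adjusted p = 0.290), passed only with no count filter. From stage II to III the change in Gzmm was 2.51 ± 0.33 (adjusted p = 0.00716), the only 1 of the 6 called, where 0.0494% of all genes were called. Gzma stood at 1.84 ± 0.34 there (adjusted p = 0.0595), passed with DESeq2, voom or no filter, and was at 1.003 without KO stage III replicates 1 and 3. From stage III to IV none of the 6 was called, where 0.0283% of all genes were. Cma1, Gzmc and Gzmm had an unadjusted p under 0.05 in that step, and DESeq2 called 1 member, Gzmc.

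The 3 interaction calls were less firm than the stage II differences. That of Cma1 ended in 14 of the 18 fits that left out 1 library (2.52 to 3.36) and that of Gzma in 8 of them (1.90 to 2.12). That of Gzmm held in all 18, but was at 1.91 (adjusted p = 0.117) without KO stage III replicates 1 and 3. None of the 3 held without the libraries numbered 1, and that of Cma1 also ended with a term for Xist.

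The members also differed between the sorted stages, some with more RNA in the late and some in the early stage. In WT, from stage II to IV, Cma1 rose 22.1-fold (log2 4.47 ± 0.42, adjusted p = 1.14e-06), Gzmb 8.67-fold (3.12 ± 0.27, adjusted p = 5.34e-07) and Gzma 4.51-fold (2.17 ± 0.25, adjusted p = 1.12e-05). Gzmm fell 8.91-fold (-3.16 ± 0.26, adjusted p = 2.40e-07) and Gzmc 3.44-fold (-1.78 ± 0.38, adjusted p = 0.00357). Gzmk, at -0.74 ± 0.57, did not pass (adjusted p = 0.455). Thus 5 of 6 members were called, where 15.1% of all genes were. The WT stage II libraries enter this comparison and the stage II genotype comparison alike, so the 2 are not independent.

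Step by step, WT stage III against II called 4 members, where 2.97% of all genes were called: Cma1 (2.41 ± 0.38), Gzmb (1.93 ± 0.26) and Gzma (1.48 ± 0.24) rose, and Gzmm fell (-0.89 ± 0.23, adjusted p = 0.0496). That last call ended in 15 of the 18 fits without 1 library. WT stage IV against III called 3, where 3.17% of all genes were called: Cma1 (2.06 ± 0.38) and Gzmb (1.18 ± 0.25) rose and Gzmm fell (-2.27 ± 0.25). Gzma, at 0.70 ± 0.24 (adjusted p = 0.169), and Gzmc, at -1.18 ± 0.38 (adjusted p = 0.124), moved without overlap of the stages but missed the threshold; Gzma passed in 4 and Gzmc in 5 of 9 other settings. The Gzmb call ended without any 1 WT stage III library or without WT stage IV replicate 2 or 3.

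The same steps were then read in KO. Stage III against II called 5 of 6, where 10.1% of all genes were called, and 5.26% were called higher; all 5 were higher: Cma1 (3.91 ± 0.42), Gzma (3.32 ± 0.26), Gzmk (3.27 ± 0.64), Gzmb (2.31 ± 0.26) and Gzmm (1.62 ± 0.24). Gzmm thus rose in KO over the same step at which it fell in WT, which is the interaction given above. Gzmc was at -0.12 ± 0.35. Without KO stage III replicates 1 and 3 the Gzmk call ended (2.14, adjusted p = 0.228) and the other 4 held, with Gzmm at 1.03 (adjusted p = 0.0465). Stage IV against III called 5, where 17.7% of all genes were called: Cma1 (3.37 ± 0.40), Gzmb (1.68 ± 0.26) and Gzma (0.91 ± 0.24) rose, and Gzmc (-3.23 ± 0.39) and Gzmm (-3.09 ± 0.26) fell. The Gzma call (adjusted p = 0.0164) was the least firm: it ended without KO stage III replicate 1, without KO stage IV replicate 1, in the fit on these groups alone (adjusted p = 0.247), with voom and without the libraries numbered 1. Its value ran from 0.61 to 1.73, the highest without KO stage III replicates 1 and 3. The other 4 calls held under every alternative. From stage II to IV all 6 were called, where 14.9% of all genes were called. Over that span Cma1 rose 155-fold (7.28 ± 0.48), Gzma 18.8-fold, Gzmb 15.9-fold and Gzmk 4.32-fold, while Gzmc fell 10.1-fold and Gzmm 2.78-fold. The Gzmk call over that span ended without any 1 KO stage II library or without KO stage IV replicate 1 or 3.

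**Figure D3:**
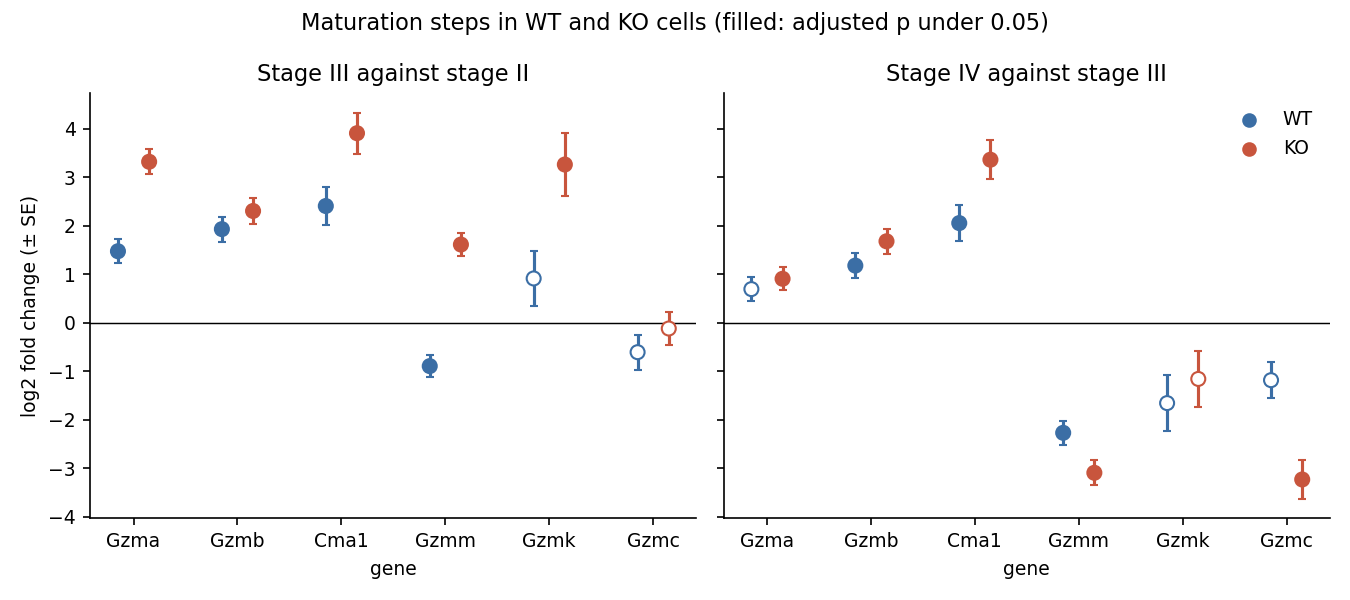
Log2 fold change with its SE at each maturation step, stage III against II (left) and IV against III (right), in WT (blue) and KO (red); filled points passed the test. At the first step Gzmm is at -0.89 in WT and at 1.62 in KO, and at the second step both genotypes have Cma1 and Gzmb above 0 and Gzmm below 0.

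Ranked by mean level over the 6 groups, Gzma and Gzmb were highest in stage IV of both genotypes, with WT and KO overlapping, then in stage III, again overlapping, then in WT stage II, with KO stage II alone at the bottom. Cma1 had the order WT IV, KO IV, WT III, KO III, WT II, KO II, and only KO III and WT II overlapped. Gzmm was highest in WT stage II and KO stage III, which overlapped, and lowest in the 2 stage IV groups. Gzmc was highest in KO stages II and III and lowest in stage IV. For Gzmk only KO stage II stood apart, below all other groups.

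Amount and mixture of protease RNA were also followed. The 6 genes together took 0.399% ± 0.012 (SD, n = 3) of all counts in WT stage II, 1.08% ± 0.15 in WT stage III and 1.86% ± 0.14 in WT stage IV. In KO the shares were 0.114% ± 0.015, 0.830% ± 0.248 and 1.99% ± 0.19. Gzma made up 92.3% of the summed per-length level (RPKM) in WT stage II and 85.3% in KO stage II, and 86.4% and 87.0% in stage IV. Gzmc took 0.213% ± 0.062 of that sum in WT stage II and 1.90% ± 0.16 in KO stage II. The per-length ratio of Gzma to Gzmb was 21.5, 17.5 and 15.2 in WT stage II and 8.71, 6.49 and 7.88 in KO stage II, without overlap. In stage IV it was 13.9, 7.69 and 7.70 in WT and 14.0, 6.46 and 8.11 in KO, with overlap.

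The genes between Cma1 and Gzmb on chromosome 14 were almost silent next to these 3 members. Over all 18 libraries Cma1 had 125742 counts, Gzmc 3874 and Gzmb 567193. Between them, Cma2, Mcpt1, Mcpt9, Mcpt2, Mcpt4, Ctsg, Gzme, Gzmd, Gzmg, Gzmn and Gzmf had 2 to 20 counts each. Mcpt8, a basophil protease gene, had 778, of which 494 came from 1 library. Of 19 other granule serine protease genes, only 1 passed the count filter and none was called in any comparison. Their summed level was 46.7 CPM in KO stage II replicate 2 and 91.8 in KO stage III replicate 2, and at most 2.54 in the other 16 libraries.

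Because Cma1 is a mast cell gene, 11 mast cell and basophil markers were read beside it. In WT stage IV, where Cma1 was highest, Mcpt4, Mcpt8, Tpsb2, Tpsab1, Ms4a2 and Mrgprb1 had 0 counts in all 3 libraries, and the list summed to 11.8 to 32.2 CPM, of which Kit, which innate lymphoid cells also express, gave 8.62 to 27.2. Cpa3, Hdc, Fcer1a and Gata2 had counts in at least 1 of these libraries. From WT stage II to IV, Kit was called lower (-4.01 ± 0.39). Cpa3 (0.21 ± 0.61), Hdc (-1.61 ± 0.55) and Gata2 (-3.65 ± 2.47) were not called. Basophil genes did appear in replicate 2 of KO stages II and III, with 892 and 1544 counts of Prss34, 68 and 169 of Fcer1a and 259 and 494 of Mcpt8, against 0 to 4 counts of each in replicates 1 and 3 of those groups. Without KO stage II replicate 2 the stage II difference of Cma1 was -3.78 (adjusted p = 2.34e-04), and without KO stage III replicate 2 the stage III difference was -1.54 (adjusted p = 0.0111). None of the 11 markers was called between the genotypes in any stage, with 4 of them tested.

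Genes on marker lists of other cells differed between the genotypes. A list held 12 genes typical of ILC1, the type 1 innate lymphoid cells. Of these, 5 were called higher in KO stage II, 8 in stage III and 2 in stage IV. None was called lower. Of all tested genes, 1.46%, 7.9% and 0.509% were called in those comparisons. In WT, 11 of the 12 were called lower in stage IV than in stage II (median log2 fold change -4.43). Of all genes, 15.1% were called there. The list thus also followed the sorted stage within WT. Zfp683, which encodes the transcription factor Hobit, rose in all 3 stages (1.93 ± 0.28, 4.44 ± 0.37 and 5.29 ± 0.39). Itga1, Tmem176a, Tmem176b and Tnfsf10 rose in stages II and III, by 0.92 to 1.79 in the first and 1.15 to 2.75 in the second. Il7r (1.86 ± 0.29) and Cd200r1 (1.5 ± 0.42) rose in stage III, and the chemokine receptor gene Cxcr6 in stage III (2.66 ± 0.49) and stage IV (2.48 ± 0.52). Their summed level was 1770 to 2084 CPM in WT stage II and 2628 to 3132 in KO stage II, 286 to 1204 against 747 to 1741 in stage III, and 104 to 626 against 161 to 374 in stage IV. The 9 NK markers summed to 18777 to 21561 in WT stage II and to 15637 to 17428 in KO stage II, with 2 called lower, Eomes and Klre1. In stage II T cell markers summed to 684 to 775 in WT and to 612 to 734 in KO, B cell markers to 967 to 1012 in WT and to 1096 to 1326 in KO, and myeloid markers to 328 to 387 in WT and to 245 to 327 in KO. Among them Cd3d, a chain of the T cell receptor complex, was called lower (-1.54 ± 0.23, adjusted p = 0.00120) and Cd79b, a chain of the B cell receptor, higher (1.16 ± 0.25, adjusted p = 0.0229). The median log2 fold change was -0.52 for the 10 T cell markers tested, -0.82 for the 6 B cell markers and -0.27 for the 8 myeloid markers. Of the B cell markers, Cd79a, Cd22, Ebf1 and Ms4a1 had negative values and Ighm a positive one, none of them called. In stage III T cell markers summed to 327 to 347 in WT and to 344 to 530 in KO, B cell markers to 679 to 752 in WT and to 763 to 1409 in KO, and myeloid markers to 401 to 441 in WT and to 374 to 642 in KO. Cd3g (0.995 ± 0.27, adjusted p = 0.0394) and Cd79b (1.73 ± 0.26, adjusted p = 0.00123) were called higher there, and the median log2 fold change of the 8 myeloid markers tested was 1.53, with none called. In stage IV no T cell, B cell or myeloid marker was called. Whether these markers came from other cells was not tested, nor was the part of such cells in the protease differences.

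The 17 genes of a list that process, store or inhibit granzymes, or carry them into granules, were all tested. In KO stage II, 4 were called lower and 1 higher, where 1.46% of all genes were called. The median log2 fold change of the 17 genes was -0.11 there. In stage III, 3 were called lower and 3 higher, where 7.9% of all genes were called. In stage IV, 1 was called lower and 1 higher, where 0.509% of all genes were called. Igf2r encodes a mannose 6-phosphate receptor, which carries granzymes tagged with that sugar to the granule and takes up granzyme B at the cell surface. It was at 87.3, 92.0 and 80.9 normalized CPM in WT stage II and at 32.2, 26.4 and 30.0 in KO. In stage III it was at 125, 120 and 109 in WT and at 48.1, 58.0 and 54.3 in KO, then in stage IV at 82.2, 74.3 and 75.0 in WT and at 41.1, 33.2 and 41.6 in KO. Every KO library lay below every WT library of its stage. The log2 fold changes were -1.56 ± 0.12 (adjusted p = 1.01e-05), -1.14 ± 0.12 (5.56e-05) and -0.997 ± 0.12 (3.84e-04). Of all settings and omissions tried, only the fit on stage III alone ended one of these calls (adjusted p = 0.0817). M6pr, the gene of the second receptor for that sugar, was at -0.11, -0.29 and -0.15 and was not called, nor were Gnptab and Gnptg, whose products make the tag.

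Serpinb9b, a close relative of the granzyme B inhibitor gene Serpinb9, was at 36.1, 67.4 and 67.1 in WT stage II and at 9.42, 18.3 and 17.0 in KO. WT and KO did not overlap, and the gene fell by 1.94 on the log2 scale (SE 0.28, adjusted p = 7.26e-04), a call that held under every alternative. Perforin RNA (Prf1) was at 593, 689 and 673 in WT stage II and at 359.6, 372 and 303 in KO, and at 1544, 1691 and 1572 in WT stage III and at 611, 903 and 447 in KO. It was lower in every KO library of both stages. The fold changes were -0.92 ± 0.19 (adjusted p = 0.0181) and -1.29 ± 0.19 (adjusted p = 0.00122), and -0.23 ± 0.19 in stage IV (adjusted p = 1). The stage II call ended in 5 of the 18 fits without 1 library. Cst7, which encodes cystatin F, an inhibitor of the cathepsin that activates granzymes, was at 340.2, 392 and 374 in WT stage II and at 185, 205 and 204 in KO. It fell by 0.90 (SE 0.17, adjusted p = 0.00957), and that call too ended in 5 of those 18 fits. Ctsc, the activating cathepsin itself, was at -0.12 ± 0.13 and not called. Without WT stage II replicate 2 or 3, or without any 1 KO stage II library, only Igf2r and Serpinb9b of the list remained called in stage II.

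Among the genes that were higher in KO, Srgn encodes serglycin, the proteoglycan that holds granzymes in the granule. It was at 567, 698 and 697 in WT stage III and at 1328, 1255 and 1043 in KO, and at 475, 610.0 and 531 in WT stage IV and at 1020, 1188 and 753 in KO. KO lay above WT in both stages, with log2 differences of 0.89 ± 0.18 (adjusted p = 0.0116) and 0.87 ± 0.18 (adjusted p = 0.0450). The stage III call ended in 4 and the stage IV call in 13 of the 18 fits without 1 library (adjusted p up to 0.0819 and 0.326). Serpinb1a, an inhibitor of granule serine proteases of other leukocytes, was at 1.07, 0.93 and 1.65 in WT stage III and at 7.34, 11.6 and 2.82 in KO, and rose by 2.57 ± 0.41 (adjusted p = 0.00210). Serpina3g, a serpin that inhibits cathepsins, rose by 0.55 ± 0.13 in stage II (adjusted p = 0.0486) and 0.61 ± 0.13 in stage III (adjusted p = 0.0156). The stage II call of Serpina3g ended in 15 and its stage III call in 4 of the 18 fits without 1 library. Serpinb9 was lower in stage III (-0.59 ± 0.17, adjusted p = 0.0449), a call that ended in 16 of those fits. Without KO stage III replicates 1 and 3, which leaves 1 KO library, Igf2r was at -1.03, Prf1 at -0.84 and Serpinb9 at -0.64 in stage III. Serpinb1a was at 3.23, Srgn at 0.93 and Serpina3g at 0.34 there. In the fit on stage III alone none of the 17 genes was called, and the share of all genes called in that fit is not given here. In WT maturation from stage II to IV, 7 of the 17 were called higher, led by Serpinb9b (2.79 ± 0.28) and Prf1 (2.07 ± 0.20). The 3 called lower were Serpinb1a (-2.69 ± 0.41), Serpina3g (-1.92 ± 0.14) and Srgn (-0.58 ± 0.18, adjusted p = 0.0391). Of all genes, 15.1% were called in that comparison. The call of Srgn ended in 15 of the 18 fits without 1 library (adjusted p up to 0.225).

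**Figure D4:**
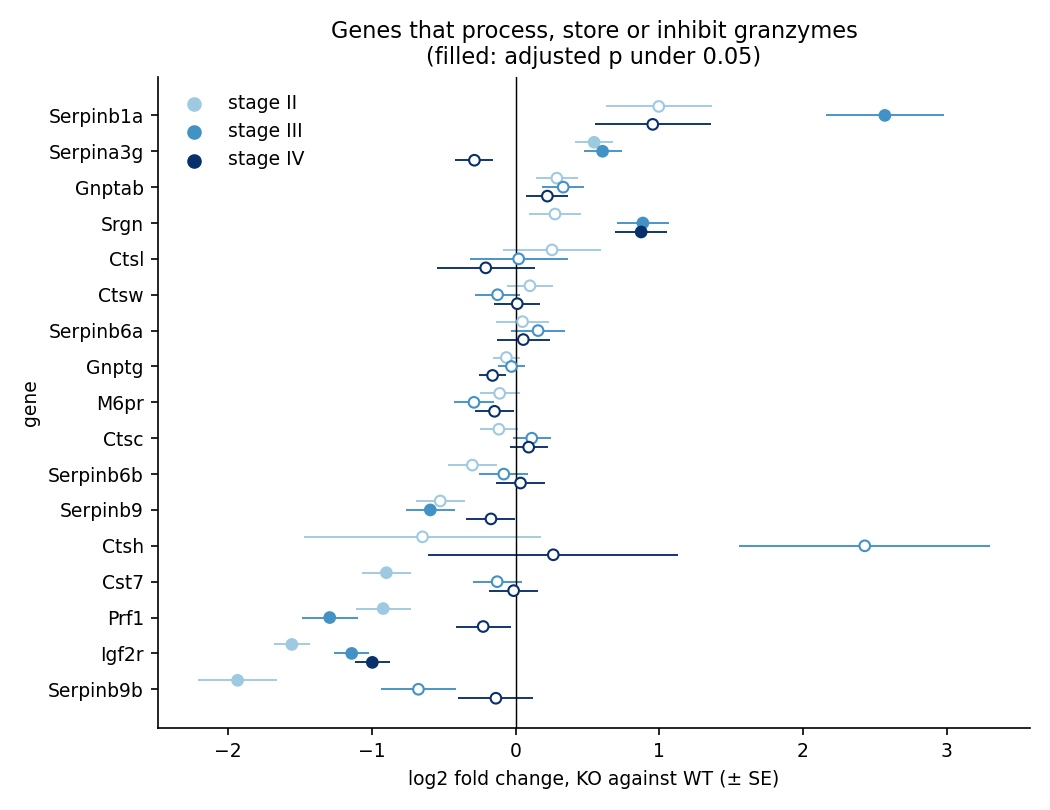
Log2 fold change of KO against WT with its SE for 17 genes that process, store or inhibit granzymes, in stages II (light), III (middle) and IV (dark); filled points passed the test. Igf2r is filled in all 3 stages, at -1.56, -1.14 and -0.997. The medians of the 17 genes are -0.11, -0.03 and -0.01, with single genes from -1.935 (Serpinb9b, stage II) to 2.57 (Serpinb1a, stage III).

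The tested genes with the profile most like each member over the 18 libraries were found by the root-mean-square (RMS) difference of centred log2 normalized CPM. For Gzma they were Serpinb9b (0.37), Fcgr2b (0.39) and Borcs7 (0.49), beside an RMS of 1.49 for Gzma around its own mean. For Gzmb they were Fcgr2b (0.34), Cmklr1 (0.47) and S1pr5 (0.47), and for Cma1 Klrg1 (0.81), Cdc20b (0.87) and Cmklr1 (1.04). For Gzmm they were Ces2c (0.40), Ociad2 (0.51) and Crtam (0.53), for Gzmc Ly6e (0.46), Ifit1 (0.47) and Nrgn (0.49), and for Gzmk Gm15518 (0.70), Col8a2 (0.82) and Sh2d1a (0.83). No gene came nearer to Gzmk than 0.70, against an RMS of 1.34 of its own. All libraries share their stage and genotype groups, so these distances describe likeness and carry no test.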

How the data were processed

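RNA was measured in 18 libraries, 3 for each of 6 groups of genotype and stage, grouped by their labels. The submitters' processing notes name STAR 2.0.4, an aligner, and featureCounts 1.4.5 of Subread, a read counter; their settings, the build and the read type were not given in the sources used here. The deposited files hold, per the file headers, a count, a CPM and an RPKM for each Ensembl gene. The authors' deposited CPM equals the count per library total, and the authors' deposited RPKM that value per kilobase of listed length, so only counts were tested. Of the 41388 IDs, 40254 were in GENCODE M21 (GRCm38), which gave the symbols, and 40195 overlapped their position there. PCR copies cannot be told from molecules in the counts.

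Counts were tested with edgeR 4.0.16 (R 4.3.3): filterByExpr by group, scaling by the trimmed mean of M values, 1 quasi-likelihood fit with a mean per group over all 18 libraries, and contrasts between groups or of differences (interactions). P-values were adjusted over 14156 genes by Benjamini and Hochberg's method, with 0.05 as the threshold. The SE is the absolute log2 fold change over the square root of F, and fitted values used a prior count of 0.125. Normalized CPM is the count over the scaled library size, and normalized RPKM the same per kilobase. Profiles were compared with a pseudocount of 0.5 CPM. Each member is described in every group; genes of a fixed list are named where called in a KO against WT contrast or where they lead a list's level. A few partner genes that were not called (M6pr, Gnptab, Gnptg and Ctsc) and the genes of the chromosome 14 cluster were named after their values were seen. The 6 members and all lists were chosen with earlier results of these data known, and so were the motif and the tests. The script was tested on simulated data. Alternatives were relative log expression scaling, DESeq2 1.42.0, no count filter, the replicate number as a block, a fit of only the groups compared, limma 3.58.1 (voom with quality weights), a term for Xist, leaving out KO stage III replicates 1 and 3 or the 6 libraries numbered 1, and leaving out each library in turn. The same alternatives were added for the partner genes after the data were seen. RefSeq promoters (GRCm38.p6) matched all 6 members. The replicate number paired the libraries, with every same-numbered pair's deviations from the group means correlated above 0.1, between the 3 WT stages (0.131 to 0.485) and between KO stages II and III (0.154 to 0.313), but not between the genotypes of a stage or in the other KO steps. WT stage IV and KO stage II also met this mark (0.134 to 0.292). Replicates differed by more than sampling noise, so none was merged.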

Additional observations from a re-analysis of the deposited data

Results flagged for a closer look

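For 3 of the 6 members, the difference between KO and WT was called as changing between 2 stages by a test of the difference itself (edgeR interaction contrasts, n = 3 libraries per group). For Gzmm the KO difference moved by 2.51 on the log2 scale from stage II to III, with Gzmm lower in all 3 KO libraries of stage II and higher than every WT library in 2 of 3 KO libraries of stage III. For Gzma it moved by 2.06 from stage II to IV. For Cma1 it moved by 2.81 over the same span. Of all tested genes, 0.0494% were called for the change from stage II to III and 0.212% for that from II to IV. The Gzma call ended in 8 and the Cma1 call in 14 of the 18 fits without 1 library. None of the 3 calls held without the libraries numbered 1. In stage III the ranges of the 2 Gzmm groups overlapped through KO replicate 2, which had the most genes and the highest Itgam of the 3 KO libraries of that stage. Itgam was at 105 and 107 CPM in KO stage III replicates 1 and 3, where Gzmm was at 68.5 and 71.4, and at 293 in replicate 2, where Gzmm was at 40.0. The part of these library differences in the Gzmm result was not tested beyond leaving the libraries out.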

How the results depend on the processing

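Over 1944 recomputed values of the 72 member fold changes, 1786 kept their direction and side of the threshold, 78 lost and 61 gained a call, and 19 changed sign, none of which was called. Counts of members called with 1 library left out ran as follows for KO against WT: 3 to 5 in stage II (4 with all libraries), 0 to 3 in stage III (2) and 0 to 0 in stage IV (0). In WT they were 3 to 4 for stage III against II (4), 2 to 4 for IV against III (3) and 5 to 5 for IV against II (5), and in KO 5 to 5 (5), 4 to 5 (5) and 5 to 6 (6). For the change of the KO difference they were 1 to 3 for stage III minus II (1), 0 to 2 for IV minus III (0) and 0 to 3 for IV minus II (2). KO against WT in stage III called 4 with no count filter and 0 both with only the groups compared and without the libraries numbered 1. WT stage III against II called 2 without the libraries numbered 1. WT stage IV against III called 6 with no filter or with voom weights, and 5 with only the groups compared or without KO stage III replicates 1 and 3. The change from stage II to III called 2 with DESeq2 or voom, 4 with no filter, and 0 without KO stage III replicates 1 and 3 or the libraries numbered 1. The change from stage III to IV called 1 with DESeq2 and 2 with no filter. The change from stage II to IV called 6 with no filter, 4 with the replicate block and 0 without the libraries numbered 1. The shares of all genes called in these settings are not given here, so the counts cannot be set against them.

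Where the numbers paired the libraries (the WT stages, and KO stages II and III), the replicate block changed no call of a member. Between the genotypes of a stage, not every same-numbered pair correlated above 0.1. Across genotypes only WT stage IV with KO stage II did so in every pair (0.134 to 0.292). Same-numbered pairs over all groups exceeded a correlation of 0.1 in 24 of 45 cases (median 0.122, from -0.498 to 0.485). The median of other pairs was -0.0469, and 13 of 18 libraries correlated best with their own number. In the contrasts between genotypes the block added the calls of Gzmb in stage II (adjusted p = 0.00304) and Gzmm in stage III (adjusted p = 0.0448). For the change from stage II to IV it added those of Gzmb (adjusted p = 0.0405) and Gzmm (adjusted p = 0.0303). It ended none.

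The sign changes were all in differences that were not called, at -0.43 to 0.50 on the log2 scale with all libraries. In stage III KO against WT they were Gzma at 0.014 without the libraries numbered 1 and 0.16 without KO replicate 2, and Gzmb at 0.0011 with a term for Xist. In stage IV they were Gzma at -0.060 without KO replicate 1, Gzmb at -0.069 without WT replicate 1 and -0.076 without KO replicate 2, Gzmc at 0.058 with the Xist term and 0.052 without WT replicate 2, Gzmk at 0.63 without the libraries numbered 1 and 0.52 without WT replicate 1, and Gzmm at 0.23 with the Xist term and 0.0031 without WT replicate 3. Gzmc in KO stage III against II was at 0.0012, 0.049 and 0.088 when replicate 2 of KO stage II, or 2 or 3 of KO stage III, was left out. Of the changes between stages, Gzmc from II to III was at -0.041 without KO stage III replicate 1, Gzma from III to IV at -0.085 without KO stage III replicate 2, and Gzmk from III to IV at -0.28 without WT stage III replicate 1 and -0.077 without KO stage IV replicate 3. Over all single omissions the values ran from -0.54 to 0.16 (Gzma, stage III), -0.060 to 0.15 (Gzma, stage IV), -0.076 to 0.29 (Gzmb, stage IV), -0.60 to 0.052 (Gzmc, stage IV), -1.01 to 0.52 (Gzmk, stage IV) and -0.36 to 0.0031 (Gzmm, stage IV) for KO against WT. They ran from -0.59 to 0.088 for Gzmc in KO stage III against II, -0.041 to 0.67 for its change from II to III, and -0.085 to 0.61 (Gzma) and -0.28 to 1.45 (Gzmk) for the change from III to IV. The cause of these changes was not tested. Counts of 33 to 81 for Gzmc in WT stage IV and of 39 to 57 for Gzmk in KO stage II limit the precision there.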

Other observations

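Among the 3 libraries of each group, the one numbered 1 had the lowest Gzmb in all 6 groups, at 229.9, 982 and 1908 normalized CPM in WT stages II, III and IV and at 136, 691 and 2196 in KO. The same libraries had the highest per-length ratio of Gzma to Gzmb in each group, from 8.71 in KO stage II to 21.5 in WT stage II. The labels do not say what the number marks. This was noticed in the data and was not tested.

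In WT, Gzmk was higher in the library numbered 1 than in the other two of its group in stages III and IV (65.3 against 21.1 and 20.5, and 22.3 against 5.50 and 6.03), while in stage II it was at 19.8 beside 19.9 and 16.7. Those 3 WT libraries are the ones with Xist at 35.5 to 45.2 CPM. With a term for Xist in the fit, the KO difference of Gzmk was -4.24 in stage II and -1.59 in stage III (adjusted p = 8.95e-04 and 0.0790). Xist and the replicate number cannot be told apart in WT.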
